A study of Mus musculus with 4 samples.

Results

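Peaks of FOXL2 binding that lay just outside a single protein-coding gene, nearly all before its start where strand was known, were described. They numbered 985 of the 11438 peaks in the deposited list, or 8.61% of the 11434 peaks on chromosomes 1 to 19 and X. A peak was taken when its centre lay outside the body of every protein-coding gene and exactly 1 such gene had a border (its annotated start or end) within 1 kb of the centre. The members were thus chosen by position alone, on build mm10 with the RefSeq genes of the matching assembly GRCm38.p6. They lay at 975 genes and were set against the 5110 single-border peaks whose centre lay inside that gene. Of the 6155 single-border peaks, a further 60 had their centre outside that gene but inside the body of another and were in neither set.

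The 2 FOXL2 ChIP samples and 2 input samples came from wild-type ovaries of CD1 mouse embryos at E14.5, freed of the mesonephros and pooled. ChIP-seq uses an antibody, here against FOXL2, to pull down the DNA that a protein occupies for sequencing, and input is chromatin that skipped the antibody step. A single list of 300 bp peaks serves the ChIP samples, with no height, score or value per sample, so read depth and peak strength are unknown and the spread between replicates cannot be given. The tissue label could not be checked against marker genes, since a list of positions holds no expression.

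FOXL2 belongs to the forkhead transcription factors and acts in granulosa cells and their fetal precursors, which surround and nourish oocytes. Forkhead proteins bind DNA through a winged-helix domain that reads sequences close to the letters TGTTTAC, which on the opposite strand read GTAAACA. Transcription starts at the promoter, and in mammals many promoters are rich in the dinucleotide CpG and send out RNA in both directions, the outward RNA often being a long noncoding RNA (lncRNA).

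The stretches below come from members whose peak held the forkhead letters, 8 genes with the letters nearest to the peak centre. They are shown because these letters stood in a larger share of the promoter windows of genes with an outside peak than with an inside peak, in windows that cover outside peaks more fully. Sequences are RefSeq GRCm38.p6 promoter sequence, 5′ to 3′ on the strand of the gene, 20 bases on each side, with the forkhead letters in capitals.
Etv5: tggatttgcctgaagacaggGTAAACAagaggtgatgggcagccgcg
Klf9: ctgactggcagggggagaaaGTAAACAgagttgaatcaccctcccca
Brk1: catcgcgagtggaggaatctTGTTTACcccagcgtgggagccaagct
Pot1a: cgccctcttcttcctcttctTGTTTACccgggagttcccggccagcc
Sinhcaf: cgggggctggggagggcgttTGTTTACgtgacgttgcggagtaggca
Otud1: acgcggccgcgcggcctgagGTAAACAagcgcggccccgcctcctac
Zbtb5: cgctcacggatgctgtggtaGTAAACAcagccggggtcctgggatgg
Rmnd5a: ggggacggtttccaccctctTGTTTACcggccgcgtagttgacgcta

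In these genes the middle of the letters lay 2.5 to 4.5 bp from the centre of a 300 bp peak. Etv5, an ETS family transcription factor gene, had its stretch at chr16:22439727-22439773 on the minus strand, in a peak 177 bp outside the gene. Klf9, a Krüppel-like factor gene, had it at chr19:23141106-23141152 on the plus strand, in a peak 99 bp outside. Brk1, which encodes a subunit of the actin-regulating WAVE complex, had it at chr6:113604584-113604630 on the plus strand (peak 167 bp outside). These 3 genes had the letters 2.5 bp from the peak centre. Pot1a, which encodes a telomere-binding protein, had it at chr6:25809288-25809334 on the minus strand (peak 37 bp outside). Sinhcaf, which encodes a factor of the SIN3 histone deacetylase complex, had it at chr6:148946634-148946680 on the minus strand (183 bp outside). Otud1, a deubiquitinase gene, had it at chr2:19657683-19657729 on the plus strand (29 bp outside). Zbtb5, a BTB zinc finger gene, had it at chr4:45012527-45012573 on the minus strand (133 bp outside). Rmnd5a, an E3 ubiquitin ligase subunit gene, had it at chr6:71440744-71440790 on the minus strand (134 bp outside).

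The outside peaks sat close to the border. Their centres lay a median of 183 bp from it (quartiles 81 and 349 bp, range 1 to 981 bp), against a median of 257 bp for inside peaks (quartiles 147 and 453 bp). Within 250 bp of the border lay 61.7% of outside peaks and 49% of inside peaks. The fullest 100 bp interval outside was the one next to the border, with 286 peaks, whereas inside it was the interval from 100 to 200 bp, with 1324. Position was part of the rule, so these distances are a description and were not tested. Because each peak was 300 bp wide, 413 of the 985 outside peaks (41.9%) reached across the border into the gene, and the other 572 lay outside it over their whole width.

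**Figure D1:**
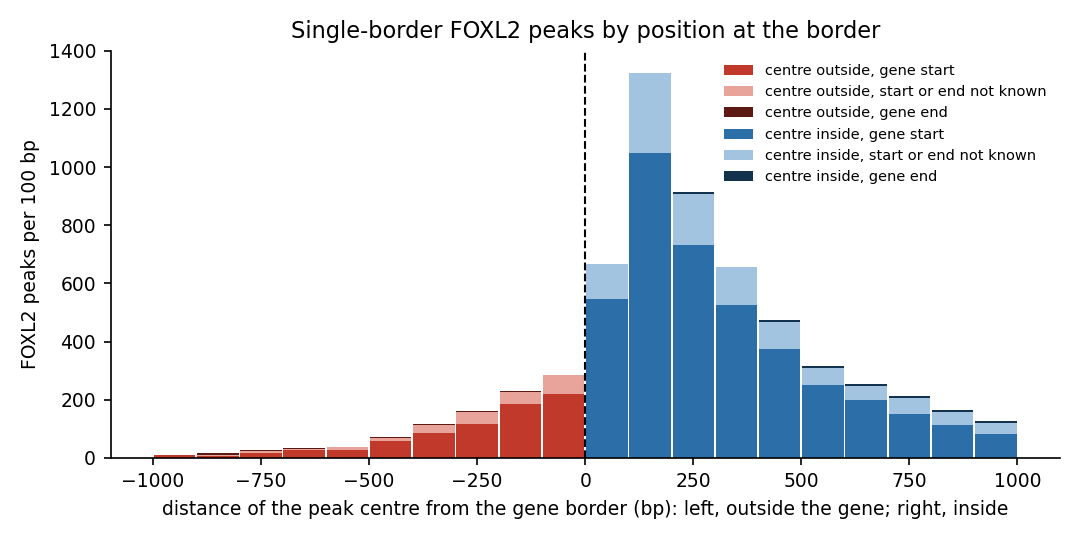
Number of single-border FOXL2 peaks per 100 bp by distance of the peak centre from the gene border in bp, with outside peaks to the left of the dashed border and inside peaks to the right, and shades for gene start, gene end or not known. The outside peaks are densest in the 100 bp next to the border (286 peaks) and the inside peaks from 100 to 200 bp (1324 peaks).

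At the limits of the range, the members nearest to the border lay 1 bp outside Mark2, Plcg1, 2210016L21Rik and Eif2s3x. Mark2 encodes a microtubule affinity-regulating kinase, Plcg1 a phospholipase C and Eif2s3x a subunit of translation initiation factor eIF2. Among the farthest were those 961 bp outside Nrn1, 971 bp outside Pcbp1 and 981 bp outside Atoh1. Atoh1 encodes a transcription factor, Nrn1 a neuronal surface protein and Pcbp1 an RNA-binding protein. Just past the limit lay peaks 1008 bp from Scgb1a1, 1020 bp from Maoa and 1021 bp from Cnot10. Between 1000 and 1500 bp from the nearest protein-coding border, 48 peaks lay outside every protein-coding gene.

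Nearly every outside peak with a known direction of transcription lay before a gene start. Strand came from RefSeq promoter sequences, which were matched for 17273 of the 21627 protein-coding genes on these chromosomes. Of the 777 outside peaks at a gene with a strand, 757 (97.4%, exact 95% interval 96.1 to 98.4%) were at the start and 20 at the end. Of the 4076 inside peaks, 4026 (98.8%, 98.4 to 99.1%) were at the start and 50 at the end. This small difference passed Fisher's exact test (adjusted p = 0.0267). It was the first of 21 planned differences between outside and inside peaks, each tested by a two-sided Fisher's exact test with Benjamini-Hochberg adjustment over the 21 and a threshold of 0.05. These tests measure differences between peaks of 1 list, not the spread between pools of ovaries, and neighbouring peaks are not fully independent. The remaining 208 outside peaks lay at genes without a matched promoter, at a median of 176 bp from the border, against 181 bp for those at starts.

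The 20 outside peaks at gene ends lay farther out, with a median of 540.5 bp from the border. The nearest was 16 bp beyond the end of Fer, a tyrosine kinase gene, at chr17:64146386-64146685. Others lay beyond the ends of developmental transcription factor genes. These were Otp (444 bp), a homeobox gene of the hypothalamus, Tcf21 (666 bp), Foxa3 (838 bp), a forkhead gene of liver and gut, and Six6 (888 bp), a homeobox gene of the eye and pituitary. Also beyond gene ends were the peaks of Slc34a3 (203 bp), Ctdsp1 (211 bp), Hipk2 (303 bp), Hsd17b7 (455 bp), Ivd (545 bp) and Slc11a1 (871 bp). Apart from Tcf21, these genes were picked after their values were seen.

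Where a gene has several starts, the annotated border is the outermost of them. Measured from the nearest listed start of the promoter table, the 757 outside peaks lay a median of 226 bp upstream (quartiles 111 and 420 bp upstream). The border and the listed start were the same position for 487 of them (64.3%). In 41 cases (5.42%) the nearest listed start was over 1 kb downstream of the peak. All 757 were upstream of it, which the rule fixed, since they lie outside the outermost start. Of the 4026 inside start peaks, 437 (10.9%) also lay upstream of their nearest listed start, so 1194 start peaks were upstream by that measure. Genes with fewer transcripts had a larger share of their single-border peaks outside. The share was 20.1% (18.2 to 22.2%) for genes with 1 listed transcript, 16.2% (14.0 to 18.6%) with 2, 15.4% (13.7 to 17.2%) with 3 to 5 and 13.5% (11.9 to 15.1%) with 6 or more.

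Many outside peaks had a second FOXL2 peak facing them across the border. At the same border, 278 of the 985 outside peaks (28.2%, 25.4 to 31.1%) had an inside partner, and 279 of the 5110 inside peaks (5.46%, 4.85 to 6.12%) had an outside partner. The partners' centres lay a median of 782.5 bp apart (quartiles 654 and 928 bp, range 462 to 1609 bp), and 235 of 278 pairs (84.5%) were 500 to 1000 bp apart. The smallest distance between any neighbouring centres in the whole list was 355 bp. The outside peak was the nearer of the 2 to the border in 188 of 278 pairs.

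**Figure D2:**
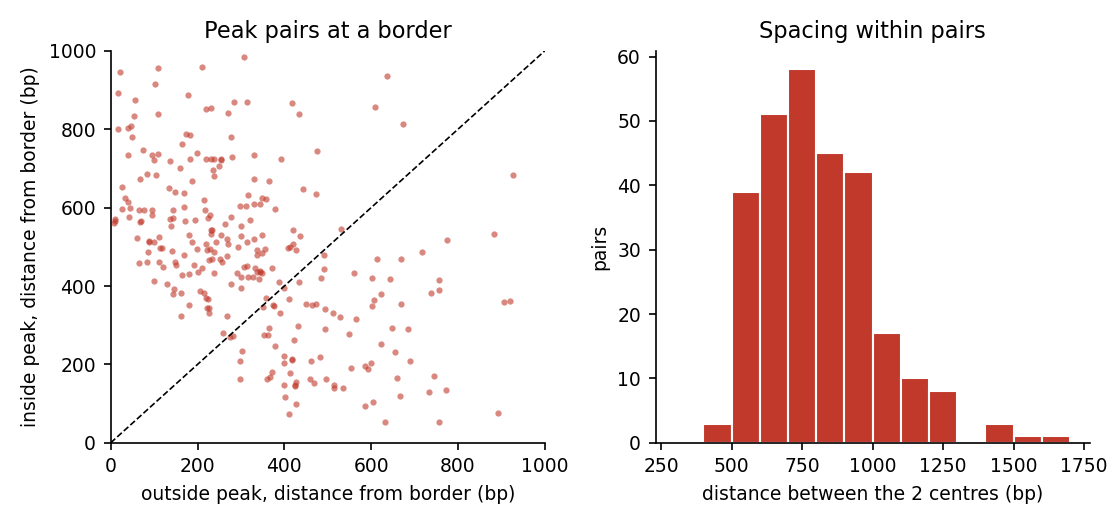
Left, the 278 pairs of FOXL2 peaks on the 2 sides of a gene border, each point giving the distance of the outside peak (x axis, bp) and of the inside peak (y axis, bp) from the border, with equal distances dashed. Right, number of pairs by the distance between their centres in bp, with a median of 782.5 bp.

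The closest pair stood at Gtpbp4, a gene for a GTP-binding protein of ribosome assembly, with centres 462 bp apart, 299 bp outside and 163 bp inside. Next came Zswim5 (484 bp apart) and Mllt1 (487 bp apart), which encodes a subunit of the super elongation complex. Arhgef11, a guanine nucleotide exchange factor gene, had centres 505 bp apart. Rela, the NF-κB subunit gene, had them 512 bp apart, with the outside peak 100 bp and the inside peak 412 bp from the border. Acvr2a, a receptor gene for activins, had them 518 bp apart, at 402 bp outside and 116 bp inside.

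Outside peaks more often had another peak on the same gene, but only with peaks at the same border counted. A pair facing each other across a border counts in both classes. Such pairs take in 28.2% of the 985 outside peaks and 5.46% of the 5110 inside peaks, since the classes differ in size. Another peak in the gene or within 10 kb of it accompanied 488 of 985 outside peaks (49.5%, 46.4 to 52.7%) and 1758 of 5110 inside peaks (34.4%, 33.1 to 35.7%; Fisher's exact test, adjusted p = 1.4e-17). With other peaks within 1 kb of the same border not counted, a setting chosen after the data were seen, the shares were 26.4% for outside and 26.9% for inside peaks (Fisher's exact test, adjusted p = 0.842).

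Outside peaks with and without a partner were then set side by side. The 278 with a partner lay a median of 300 bp from the border (quartiles 175 and 427 bp), and the 707 without lay a median of 148 bp from it (66 and 291 bp). At gene starts, promoters were CpG-rich at 206 of 220 outside peaks with a partner (93.6%, 89.6 to 96.5%) and at 456 of 537 without (84.9%, 81.6 to 87.8%). The forkhead letters stood in the promoter window at 5 of 220 with a partner (2.27%, 0.742 to 5.22%) and at 38 of 537 without (7.08%, 5.06 to 9.58%). These groups were formed after the data were seen and were not tested. Neighbouring centres are at least 355 bp apart and a partner lies within 1 kb of the border, so having a partner is tied to distance. The CpG and forkhead shares of the 2 groups are thus mixed with distance from the border.

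A few genes carried 2 outside peaks. There were 10 such genes, and none had more. In 8 of them both peaks faced the same border, 487 to 866 bp apart, and in Fam120a and Tmem107 a peak stood outside each end. At the same start, Tob2, an antiproliferative gene, had peaks 51 and 917 bp outside. Fgf18, a fibroblast growth factor gene, had them 277 and 914 bp outside, Zswim6 186 and 693 bp outside, and Wwc2, a gene of the Hippo pathway, 103 and 708 bp outside. Cited2, Dnah6, Hsp90ab1 and Trabd2b complete the 8. Hsp90ab1, which encodes a cytosolic chaperone, had peaks 105 and 592 bp from its border, and Dnah6, an axonemal dynein gene, 37 and 710 bp.

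Outside peaks lay inside noncoding genes more often than inside peaks did. Their centres fell in the body of a noncoding gene in 149 of 985 cases (15.1%, 12.9 to 17.5%), against 337 of 5110 inside peaks (6.59%, 5.93 to 7.31%; Fisher's exact test, adjusted p = 9e-16). The rule used position relative to the coding gene, so this difference is mixed with where noncoding genes lie beside coding genes. A border of a noncoding gene lay within 1 kb of 187 outside peaks (19%, 16.6 to 21.6%) and of 805 inside peaks (15.8%, 14.8 to 16.8%; Fisher's exact test, adjusted p = 0.0425). With outside peaks kept only where their centre lay outside genes of every kind, 836 remained and this second difference had the opposite sign, with 7.66% for outside and 15.8% for inside peaks (Fisher's exact test, adjusted p = 4.3e-10). That setting removed 123 of the 187 outside peaks with such a border and left the inside peaks unfiltered. Its sign and p thus follow from the filter and cannot compare the classes. The difference in noncoding borders also missed the threshold of Fisher's exact test with borders of 500 bp (adjusted p = 0.0549) and in genes with 1 transcript (adjusted p = 0.189).

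A lncRNA gene had such a border at 164 of the 187 outside peaks and at 712 of the 805 inside peaks. At gene starts, where its strand was known, it nearly always lay on the strand opposite to the coding gene. Of 116 outside peaks at gene starts whose lncRNA neighbour had a known strand, 110 (94.8%, 89.1 to 98.1%) had a lncRNA on the opposite strand, and in 103 the start of that lncRNA lay within 1 kb of the peak centre. For inside peaks, 472 of 500 lncRNA neighbours (94.4%, 92.0 to 96.2%) were on the opposite strand, and 457 had their start within 1 kb. At Kdm2b, which encodes a histone demethylase that recruits Polycomb to CpG-rich promoters, the peak lay 3 bp outside the gene and 80 bp from the start of A930024E05Rik. At Nuf2, a kinetochore gene, it lay 122 bp outside and 10 bp from the start of Gm34624. At Smc2, a condensin gene, it lay 155 bp outside and 101 bp from the start of Smc2os. At Srsf3, a splicing factor gene, it lay 132 bp outside and 96 bp from the start of Gm16196. These 4 genes were picked after their values were seen.

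The distance to protein-coding neighbours was measured as well. The next protein-coding gene was a median of 24.7 kb from outside peaks (quartiles 9.06 and 65.3 kb) and 19.4 kb from inside peaks (7.65 and 50.1 kb). It lay within 5 kb for 118 outside peaks (12%) and 839 inside peaks (16.4%). Genes with an outside peak had a median length of 34.2 kb and 3 transcripts, genes with an inside peak 31.3 kb and 3, and all protein-coding genes 17.3 kb and 2. These values were not tested, since a single border within 1 kb was part of the rule.

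Promoters with an outside peak were rich in CpG. The windows ran from 250 bases before to 50 after the start, and each gene was counted once, in the outside group when it had any outside start peak. A window was called CpG-rich with a GC content of at least 50% and an observed to expected CpG ratio of at least 0.6. This held for 657 of 751 genes with an outside peak (87.5%, 84.9 to 89.8%) and 2954 of 3743 with an inside peak only (78.9%, 77.6 to 80.2%; Fisher's exact test, adjusted p = 1.9e-07). Over all 21044 promoter windows of protein-coding genes the share was 45.6%. Median GC content was 67.0% with an outside peak, 62.7% with an inside peak and 56.7% over all windows. Genes with a peak on both sides of the start fell in the outside group. Counted per start peak, promoters were CpG-rich at 93.6% of outside and 93.2% of inside peaks with a partner. Without a partner the shares were 84.9% and 79.1%, and neither contrast was tested.

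Of 16 sets of motif letters searched on both strands, the 7 forkhead letters TGTTTAC had the smallest adjusted p, and the GC box had the larger difference in percentage points. They stood in 43 of 751 windows of genes with an outside peak (5.73%, 4.17 to 7.64%) and in 85 of 3743 with an inside peak (2.27%, 1.82 to 2.80%; Fisher's exact test, adjusted p = 1.5e-05). Over all promoter windows the share was 3.03%. The GC box GGGCGG, bound by SP and KLF factors, also passed, with 77.8% and 72.2% (Fisher's exact test, adjusted p = 0.0077) against 46.7% of all windows, and it no longer passed among CpG-rich promoters (82.8% and 79.2%, adjusted p = 0.123). A window that ends 50 bases after the start covers outside peaks more fully than inside peaks, so the position of the window and the class of the peak move together here.

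The other 14 sets of letters did not pass. The shorter forkhead letters GTAAAC, which are contained in GTAAACA, stood in 7.99% of windows with an outside peak and 6.22% with an inside peak (Fisher's exact test, adjusted p = 0.175), against 6.94% of all windows. Shares for the remaining sets are given beside those of all windows, which are less rich in CpG, and were not tested against them. RUNX letters TGTGGT stood in 9.45% of windows with an outside peak and 10.5% with an inside peak, against 14.8% of all windows. GATA letters AGATAA stood in 3.46% and 5.13%, against 9.68%. NR5A1 letters AAGGTCA stood in 1.73% and 2.40%, against 4.06%. SOX letters ACAATGG stood in 1.60% and 2.0%, against 2.94%. TCF/LEF letters CTTTGA stood in 8.66% and 10.4%, against 14.4%, and AP-1 letters TGANTCA in 3.20% and 3.71%, against 7.04%. Letters of general promoter factors were ETS CCGGAAG (16.1% with an outside peak, 18.7% with an inside peak, 11.7% of all windows), NFY CCAAT (39.3%, 37.5% and 38.5%), CRE GACGTCA (6.92%, 5.85% and 3.88%), E-box CACGTG (11.1%, 11.3% and 7.91%), NRF1 GCGCATG (7.46%, 8.47% and 4.84%), YY1 AGATGGC (6.26%, 7.51% and 6.06%) and the TATA box TATAAA (6.26%, 6.04% and 12.7%). The adjusted p of these 13 sets ranged from 0.134 to 0.899 (Fisher's exact test). Matching letters are not a binding site, and windows without them may hold other sites.

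**Figure D3:**
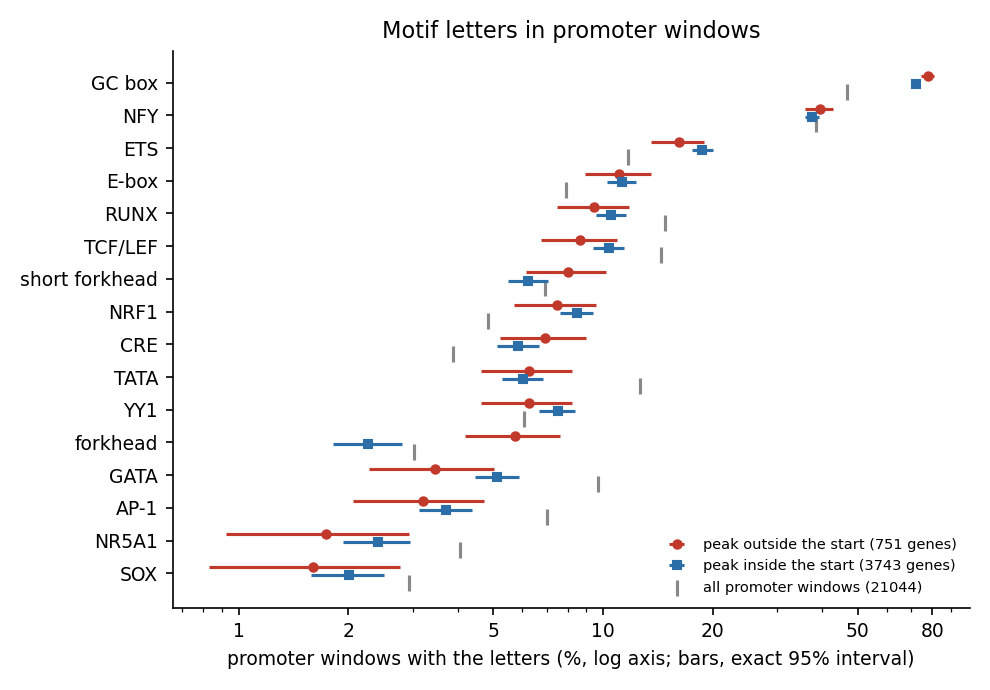
Share of promoter windows with each set of motif letters (x axis, percent on a log scale) for genes with an outside peak (circles, above), genes with an inside peak (squares) and all promoter windows (vertical ticks), with exact 95% intervals. The forkhead letters stand in 5.73% of windows with an outside peak, 2.27% with an inside peak and 3.03% of all windows.

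Within the peaks, the forkhead letters gathered at the centre. The promoter window overlapped 549 outside start peaks by at least 7 bases, and the letters stood in the shared bases of 38 of them (6.92%, 4.94 to 9.38%), against 32 of 2151 inside peaks (1.49%, 1.02 to 2.09%). In outside peaks 25 of the 38 matches had their middle within 50 bp of the centre. Their density was 6.19 per 10 kb within 50 bp of the centre, 2.16 from 50 to 100 bp, 1.75 from 100 to 150 bp and 0.181 in window bases outside the peak, where 1 match stood in 55388 bases. In inside peaks the same densities were 3.03, 1.35, 0.652 and 0.634 per 10 kb. The window bases outside the peak lie mostly near and after the start for outside peaks, and mostly before it for inside peaks. Their densities thus mix distance from the peak with position in the promoter. After the data were seen, the letters were also compared in peaks whose central 100 bp lay wholly in a promoter window. This evens the cover but not the choice of peaks. A window that ends 50 bases after the start can hold these bases only for a centre at or before the nearest listed start. Only 437 of the 4026 inside start peaks (10.9%) lay before it, so the inside peaks kept are an unusual part of their class. The letters stood in the central 100 bp of 21 of 345 outside peaks (6.09%, 3.81 to 9.15%) and of 5 of 233 inside peaks (2.15%, 0.700 to 4.94%; Fisher's exact p = 0.0251, unadjusted). The letters read TGTTTAC on the gene's strand in 18 of the 38 matches and GTAAACA in 20.

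**Figure D4:**
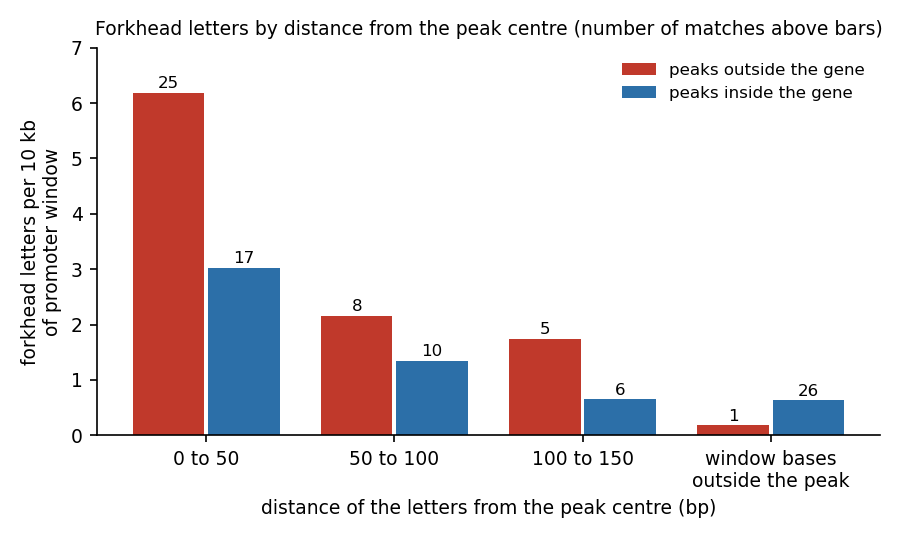
Density of the forkhead letters per 10 kb of promoter window (y axis) by distance of the letters from the peak centre (x axis, bp), outside peaks in red at the left of each pair and inside peaks in blue, with the number of matches above each bar. Density is 6.19 per 10 kb within 50 bp of the centre of outside peaks and 3.03 for inside peaks.

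Beyond the 8 genes shown above, matches within 15 bp of the centre stood in the peaks of Gpr180, Atp2c1, Btbd8, Hibadh, Il33, Ajuba, Junb and Gprc6a. Junb encodes an AP-1 subunit, with its peak 145 bp outside and the letters 13.5 bp from the centre. Ajuba encodes a LIM-domain protein of the Hippo pathway (163 bp outside, letters 12.5 bp from the centre) and Il33 a cytokine (169 bp outside, 10.5 bp). Txnip, a thioredoxin-binding protein gene known as a FOXO target, had its peak 137 bp outside and the letters 19.5 bp from the centre. The neighbouring genes Frat1 and Frat2, which encode GSK3-binding activators of WNT signalling, had peaks 40 and 100 bp outside, with the letters 45.5 and 101.5 bp from the centre. The genes of this paragraph were named after their values were seen.

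Outside peaks were then counted at genes of the gonad. An outside peak stood at 4.51% of the 21627 protein-coding genes and an inside single-border peak at 23.1%, and these shares are the background for the lists. The lists were chosen with earlier results of these data known and were not tested. Early gonad genes, active in the gonad of either sex, had an outside peak in 5 of 22 cases (22.7%, 7.82 to 45.4%) and an inside peak in 8. Of 20 pregranulosa genes, active in the precursors of granulosa cells, 1 had an outside peak (5%, 0.127 to 24.9%) and 6 an inside peak. Of 25 Sertoli cell genes, those of the supporting cells of the testis, 1 had an outside peak (4.00%, 0.101 to 20.4%) and 2 an inside peak, and of 24 later granulosa genes 2 had an outside peak (8.33%, 1.03 to 27.0%) and 2 an inside peak. None of 20 germ cell genes, 10 endothelial genes and 10 mesonephros genes had an outside peak, while inside peaks stood at 6, 1 and 0 of them.

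The early gonad genes were Wtap, Cited2, Igf1r, Kdm3a and Tcf21. Cited2, a transcriptional co-regulator that acts with WT1 and NR5A1 in the adrenal and gonadal primordium, had 2 outside peaks before its start, 151 bp outside at chr10:17722927-17723226 and 868 bp outside at chr10:17722210-17722509. Wtap, a subunit of the RNA adenosine methylation complex, had a peak 43 bp outside at chr17:12992437-12992736. Igf1r, the IGF1 receptor gene, had one 237 bp outside at chr7:67951870-67952169, and a further peak 1072 bp outside fell just past the limit. Kdm3a, a histone H3 lysine demethylase gene that acts in mouse sex determination, had one 290 bp outside at chr6:71633131-71633430. That of Tcf21, a basic helix-loop-helix gene, lay beyond its end and inside a noncoding gene. The pregranulosa gene was Cdkn1b, which encodes a cyclin-dependent kinase inhibitor, with a peak 286 bp before its start at chr6:134919965-134920264. The Sertoli gene was Aard (11 bp outside), and the later granulosa genes were Foxo1 (412 bp), a forkhead gene, and the BMP receptor gene Bmpr2 (502 bp).

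The 250 bases before the start are shown for Cited2, which has 2 outside peaks at this border, and for Cdkn1b, the pregranulosa gene with an outside peak. The nearer peak of Cited2 covers 249 of these bases and that of Cdkn1b 114. Capitals mark letters of the 16 searched sets, and the forkhead letters are in neither. The Cited2 bases lie at chr10:17722978-17723227 on the plus strand, with a GC content of 66.8%, and hold GC boxes and an E-box. The Cdkn1b bases lie at chr6:134920151-134920400 on the plus strand, with a GC content of 64.4%, and hold a GC box and NFY letters. Both are RefSeq GRCm38.p6 sequence.
Cited2: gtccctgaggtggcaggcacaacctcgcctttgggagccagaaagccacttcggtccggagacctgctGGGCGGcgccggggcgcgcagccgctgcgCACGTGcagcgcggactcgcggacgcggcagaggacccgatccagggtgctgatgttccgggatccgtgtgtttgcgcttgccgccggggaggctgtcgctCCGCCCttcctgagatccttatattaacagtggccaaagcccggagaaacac
Cdkn1b: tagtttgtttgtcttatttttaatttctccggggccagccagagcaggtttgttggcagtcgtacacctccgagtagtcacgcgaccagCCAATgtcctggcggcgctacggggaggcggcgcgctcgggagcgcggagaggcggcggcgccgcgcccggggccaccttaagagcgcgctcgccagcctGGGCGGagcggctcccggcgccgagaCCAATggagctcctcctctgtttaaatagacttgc

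Gene families used in every cell were counted in the same way. Cytosolic ribosomal protein genes had one in 7 of 90 cases (7.78%, 3.18 to 15.4%), with Rps12 (29 bp outside), Rpl3 (33 bp) and Rplp0 (93 bp) nearest to the border. An inside peak stood at 40 of the 90 (44.4%). Translation initiation factor genes had an outside peak in 6 of 55 cases (10.9%, 4.11 to 22.2%), with Eif2s3x, Eif4a2 (44 bp) and Eif1 (77 bp) nearest, and an inside peak in 27. Proteasome genes named Psma to Psmd had 3 of 40 (7.5%), namely Psmc4 (108 bp), Psmb5 (166 bp) and Psma3 (702 bp). DEAD/DEAH helicase genes had 4 of 52 (7.69%), among them Ddx47 (25 bp), and respiratory chain and ATP synthase genes 4 of 96 (4.17%), among them Atp5mpl (16 bp). Mitochondrial ribosomal protein genes had 2 of 78 (2.56%), Mrpl17 (58 bp) and, at its end, Mrpl58 (692 bp), against 28 with an inside peak. The share was 1 of 37 for aminoacyl tRNA synthetase genes (2.70%), which was Cars2 (12 bp).

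Families taken by symbol included the genes named Usp, mostly ubiquitin-specific proteases, with 7 of 55 (12.7%, 5.27 to 24.5%), those named Rab, mostly small GTPases of membrane traffic, with 6 of 69 (8.70%, 3.26 to 18%), and histone genes with 6 of 69 (8.70%, with the same interval as the Rab genes). The intervals of the Rab and histone genes included the background of 4.51%. That of the Usp genes began just above it, and no family was tested against it. Among the Usp genes, Usp1 and Usp2 had peaks 16 bp outside, and Usp6nl, which shares the symbol but encodes a GTPase-activating protein, had one 278 bp outside. Usp6nl is counted in the 7 of 55, and no interval was computed without it. The histone gene H4c4 had a peak 14 bp outside, H3c6 76 bp and H4c8 143 bp. The symbols searched for histone genes missed H3f3a (518 bp outside) and H2az2 (208 bp outside). Both lie outside the 6 of 69, and no interval was computed with them. Zinc finger genes named Zfp had an outside peak in 22 of 397 cases (5.54%, 3.51 to 8.27%), with Zfp677 (15 bp), Zfp946 (19 bp) and Zfp182 (20 bp) nearest. Transmembrane protein genes had 12 of 238 (5.04%), solute carrier genes 16 of 375 (4.27%), among them Slc12a8 (4 bp), and kinesin genes 3 of 38 (7.89%). None of 53 keratin genes (0%, up to 6.72%) and of 1110 olfactory receptor genes (0%, up to 0.332%) had an outside peak.

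**Figure D5:**
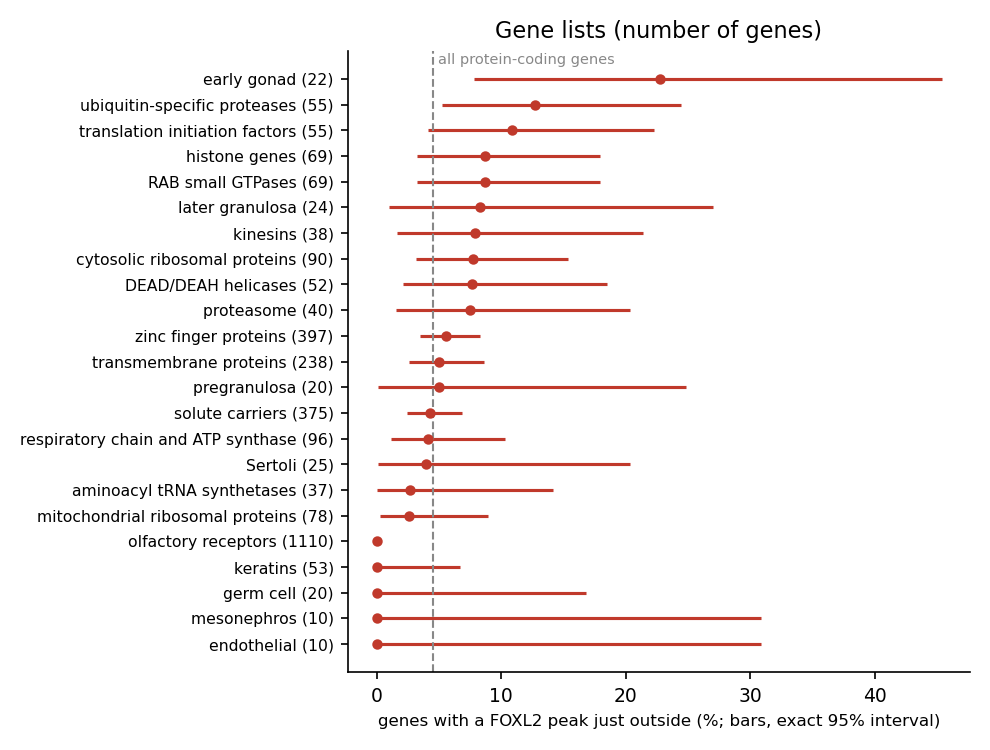
Share of genes with a FOXL2 peak just outside a single border (x axis, percent) for each gene list, with the number of genes in brackets, exact 95% intervals as bars and the share over all protein-coding genes (4.51%) dashed. Early gonad genes stand highest at 22.7%, with an interval of 7.82 to 45.4%, and olfactory receptor genes stand at 0%.

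Along the chromosomes, outside peaks made up 16.2% of outside and inside peaks together (985 of 6095, 15.2 to 17.1%). The share per chromosome was lowest on X, with 19 outside and 163 inside peaks (10.4%, 6.40 to 15.8%), and highest on chromosome 17, with 55 and 200 (21.6%, 16.7 to 27.1%). Chromosome 2 had 55 outside and 399 inside peaks (12.1%, 9.26 to 15.5%), and chromosome 13 had 53 and 196 (21.3%, 16.4 to 26.9%). The intervals of most chromosomes included 16.2%, and these shares were not tested.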

How the data were processed

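FOXL2 peaks of fetal mouse ovary were analysed as positions. Each row of the list the authors deposited gives a peak's start and end position in bp on mm10, with no header, score or p-value, in a single list for the ChIP samples, grouped by their titles. Per the submitters' processing notes, Bowtie 1.2, Picard 1.110, bedtools 2.24.0 and HOMER 4.9 were used. What each did, the peak threshold and how replicates were pooled is not given in the sources used here. Depth is unknown.

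The peak centre was the midpoint of the deposited start and end. Genes came from RefSeq GRCm38.p6, and strand and sequence from its promoter table, with the window nearest to the peak. Shares have exact (Clopper-Pearson) binomial intervals at 95%, which cover counting error only. Differences were tested by Fisher's exact test with Benjamini-Hochberg adjustment (scipy 1.17.1, statsmodels 0.14.6, Python 3.11.15). The steps were tested on simulated data. The members and lists were chosen with earlier results of these data known. Named genes were all gonad list genes with an outside peak, genes with 2 outside peaks (at the same border by the rule, with 2 genes added that had 1 at each end), the 6 closest pairs, the nearest and farthest members, the first genes of each family and 8 genes with the forkhead letters. A gene that this rule names is not reported here. Other named genes were picked after their values were seen. Every count of members depends on the annotation and on the 1 kb limit.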

Additional observations from a re-analysis of the deposited data

How the results depend on the processing

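The number of outside peaks was 881 with borders of 500 bp, 1044 with 2 kb, 836 outside genes of every kind, 966 on autosomes and 572 when the whole peak had to lie outside. The share of outside peaks at gene starts kept its direction in every setting run and missed the threshold in genes with a single transcript (97.6% against 98.0% of inside peaks). The share near a noncoding border was 18% with borders of 500 bp and 18.7% in genes with a single transcript, where it missed the threshold. Outside genes of every kind (7.66%) the difference had the opposite sign, in a setting that filtered the outside peaks alone. It took out 123 of the 187 outside peaks with such a border, so the sign follows from the filter. The share with another peak on the gene stayed above that of inside peaks in every planned setting (41.3 to 57.2% with a 10 kb window, 38.6% with a 1 kb window) and had the opposite sign, at 26.4%, without peaks at the same border. The cause of these changes was not tested, other than the removal of peaks at the same border or inside noncoding genes itself. The shares inside a noncoding gene, of CpG-rich promoters and with the forkhead letters stayed on the same side of the threshold in each setting run. The first of these was not run outside genes of every kind, where it is 0 by construction. The E-box share (12.1%) where the peak overlaps the window, and the AP-1 share (3.20%) among CpG-rich promoters, turned in sign without passing. List entries with any peak in the gene or within 10 kb numbered 1186, against 108 with an outside peak, and a gene in 2 lists counts in each. Leaving out a replicate could not be done because the list has no values per sample. No paired analysis was possible because the deposited list combines the ChIP samples and holds no value for either.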
